A study of Homo sapiens with 6 samples.

Results

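The 40 genes described here encode proteins of mitosis and of the passage from the G2 phase into it. They are a list of gene symbols drawn from textbook cell cycle biology and chosen with earlier results of these data known. Each symbol was matched to exactly 1 Ensembl ID among the 60664 genes of the deposited count table. All 40 passed the filter on low counts, among 15867 genes tested. The values come from 6 RNA sequencing libraries of the established ovarian cancer cell line SKOV3, which is of human origin. In 3 cultures JUP was knocked down with a short hairpin RNA (shJUP 1, 2 and 3), and 3 cultures carried the control hairpin shNC and have the genotype label WT (shNC 1, 2 and 3). JUP encodes plakoglobin, a protein of desmosomes and adherens junctions. No time point, hairpin sequence or statement on whether the cells came from a clone is given in the sources used here, and every group shares the SKOV3 background. The replicates are labelled as independent biological replicates. The question here is how the transcripts of the mitotic machinery differ between shJUP and shNC cells. In bulk RNA, a changed share of cells in G2 or mitosis and a changed amount of mitotic RNA per cell cannot be told apart.

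Entry into mitosis is driven by the kinase CDK1 bound to cyclin A or B, and CDC25 phosphatases switch this kinase on. Mitotic kinases of the Polo, Aurora, BUB and TTK families then build the spindle and run the checkpoint that holds anaphase back until every kinetochore is attached. The anaphase-promoting complex, with its coactivator CDC20 and the ubiquitin enzymes UBE2C and UBE2S, ends mitosis by marking cyclin B and securin for destruction. Many of these genes share a transcription programme that peaks late in the cycle. It works through the cell cycle genes homology region (CHR), to which the DREAM and MYBL2-MuvB complexes bind, and through CCAAT boxes, to which NF-Y binds, with FOXM1 acting with MYBL2-MuvB.

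Motifs of that programme were counted in the promoters of these genes. RefSeq promoter windows (GRCh38.p14, 250 bases before to 50 after the start) were matched for 33 of the 40 genes, all but BIRC5, AURKA, TPX2, UBE2C, TTK, BUB3 and FOXM1. The CHR, spelled TTTGAA, was present on either strand in 22 of the 33 windows (66.7%), against 9.97% of the 11397 windows of tested genes and 15.4% of all 27305 windows. CCAAT, on either strand, was present in 27 of the 33 windows (81.8%), against 36.7% of the windows of tested genes. Both motifs were present in 20 of the 33 (60.6%), against 4.25%. Matches on opposite strands can share letters, as CCAAT does in HMMR, and a match describes the letters only. The 130 bases before the start are shown for the 7 genes with the smallest unadjusted p among those with either motif in this stretch. Matches on either strand are in capitals, so that the arrangement in each gene can be read beside the values that follow. In PRC1 (chr15:90994536-90994665, minus strand) the CHR begins 20 bases before the start and a CCAAT 53 bases before it. TOP2A (chr17:40417897-40418026, minus strand) has CCAAT on the other strand at 93 and 53 bases and no CHR in this stretch. HMMR (chr5:163460502-163460631, plus strand) has a pair of CHR matches in a row, 28 and 22 bases before the start. In CKS2 (chr9:89311065-89311194, plus strand) the CHR lies 29 bases before the start, on the other strand. ANLN (chr7:36389732-36389861, plus strand) has CHR matches on opposite strands side by side, 26 and 20 bases before the start, and no CCAAT. CDC20 (chr1:43358851-43358980, plus strand) carries its CHR 65 bases before the start, between CCAAT boxes at 100 and 55 bases. PLK1 (chr16:23678759-23678888, plus strand) has a CHR at 29 and a CCAAT at 73 bases.
PRC1: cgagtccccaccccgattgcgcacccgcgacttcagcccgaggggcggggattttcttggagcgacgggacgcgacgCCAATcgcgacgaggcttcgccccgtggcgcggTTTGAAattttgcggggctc
TOP2A: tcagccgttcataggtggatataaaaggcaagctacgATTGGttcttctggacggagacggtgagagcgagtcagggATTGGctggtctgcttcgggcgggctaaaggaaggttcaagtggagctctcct
HMMR: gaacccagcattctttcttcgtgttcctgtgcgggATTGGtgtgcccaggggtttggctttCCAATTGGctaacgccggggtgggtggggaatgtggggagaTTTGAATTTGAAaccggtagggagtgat
CKS2: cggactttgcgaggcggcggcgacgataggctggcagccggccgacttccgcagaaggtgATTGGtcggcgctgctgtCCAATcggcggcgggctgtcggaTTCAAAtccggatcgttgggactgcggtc
ANLN: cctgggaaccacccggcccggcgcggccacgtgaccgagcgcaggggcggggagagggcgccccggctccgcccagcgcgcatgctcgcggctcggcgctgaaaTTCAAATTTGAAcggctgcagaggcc
CDC20: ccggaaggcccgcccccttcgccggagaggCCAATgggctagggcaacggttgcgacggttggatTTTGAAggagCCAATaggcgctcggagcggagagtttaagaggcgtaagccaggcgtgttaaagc
PLK1: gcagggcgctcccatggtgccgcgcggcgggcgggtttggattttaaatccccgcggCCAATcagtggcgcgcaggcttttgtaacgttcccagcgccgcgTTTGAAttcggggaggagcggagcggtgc
A CHR starting within 40 bases before the start, a window set after these positions were seen, was present in 11 of the 33 windows (33.3%), against 1.23% of the windows of tested genes. A CHR spelled otherwise or lying outside the promoter window was not counted. Fold changes between shJUP and shNC cells were close in members with and without TTTGAA in the promoter window. The median log2 fold change was 0.15 over the 22 members with a match and 0.18 over the 11 without. Over the 484 tested genes with both motifs in their windows, the 20 such members included, it was 0.04, with 55.6% above 0. Of the tested genes with no CHR in their windows, 49.6% lay above 0.

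Library totals were 17456069 to 19279422 estimated counts. JUP (ENSG00000173801) was at 39.9, 93.6 and 24.6 CPM (counts scaled to the library size after TMM scaling) in shJUP 1, 2 and 3, against 104, 133 and 101 CPM in shNC 1, 2 and 3. The groups did not overlap, but shJUP 2 was at 83% of the average of the controls, and shJUP 1 and 3 were at 35.4% and 21.9% of it. The log2 fold change of JUP was -1.10 (SE 0.44) and did not pass the test used here, edgeR's quasi-likelihood test with Benjamini-Hochberg adjustment over all genes (adjusted p = 0.47). Both libraries with the number 2 stand apart from the others, and results are given with and without them. Of 11 markers of ovarian carcinoma lines 9 reached 1 CPM in some library, with PAX8 at 253 to 392 CPM and ERBB2 at 2320 to 6900 CPM, while MUC16 and MSLN stayed under 1 CPM. Of 7 leukocyte markers only CD68 reached 1 CPM. The summed level of 8 fibroblast markers, 5 of which reached 1 CPM, was 268, 47 and 11.1 CPM in shJUP 1, 2 and 3, against 43.7, 496 and 61.4 CPM in shNC 1, 2 and 3, with PDGFRB, FAP and THY1 under 1 CPM in every library. Summed levels of 6 endothelial markers were 8.97 to 11.9 CPM in shJUP and 6.79 to 11.6 CPM in shNC libraries, and those of 4 mesothelial markers 31.2 to 61.8 CPM in shJUP and 27.5 to 35.9 CPM in shNC libraries. Of 6 markers of embryonic kidney and neural lines, CDH2 was at 136 to 201 CPM and TUBB3 at 31.5 to 56.9 CPM, NEFL stayed under 1 CPM, and NEFM, INA and PAX2 were at 0 throughout. Their summed level was 193 to 229 CPM in shJUP and 186 to 243 CPM in shNC libraries, nearly all of it from CDH2 and TUBB3.

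Most mitosis genes lay slightly higher in shJUP than in shNC cells, and none passed the edgeR test. The log2 fold change was above 0 for 36 of the 40 (90%), against 48.6% of all tested genes. Its median was 0.19 over the 40, against -0.01 over all tested genes, with single genes between -0.15 (CDC25B and KIF20A) and 0.60 (ANLN). The edgeR test called 0 of the 40 at an adjusted p under 0.05, and 0% of all tested genes. At an unadjusted p under 0.05 it held 6 of the 40 (PRC1, BIRC5, TOP2A, AURKA, HMMR and UBE2S), all higher in shJUP, where 5.17% of all tested genes were higher at that level. DESeq2 called 1 of the 40, PRC1, against 0.664% of all its tested genes called higher. With the library number as a block DESeq2 called 5, all higher (PRC1, BIRC5, ANLN, CDC20 and AURKA), against 2.35% of all genes called higher, and edgeR called 0, against 0.0063% of all tested genes, with 13 at an unadjusted p under 0.05 against a background of 9.09%. Limma-voom called 0 of the 40.

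**Figure D1:**
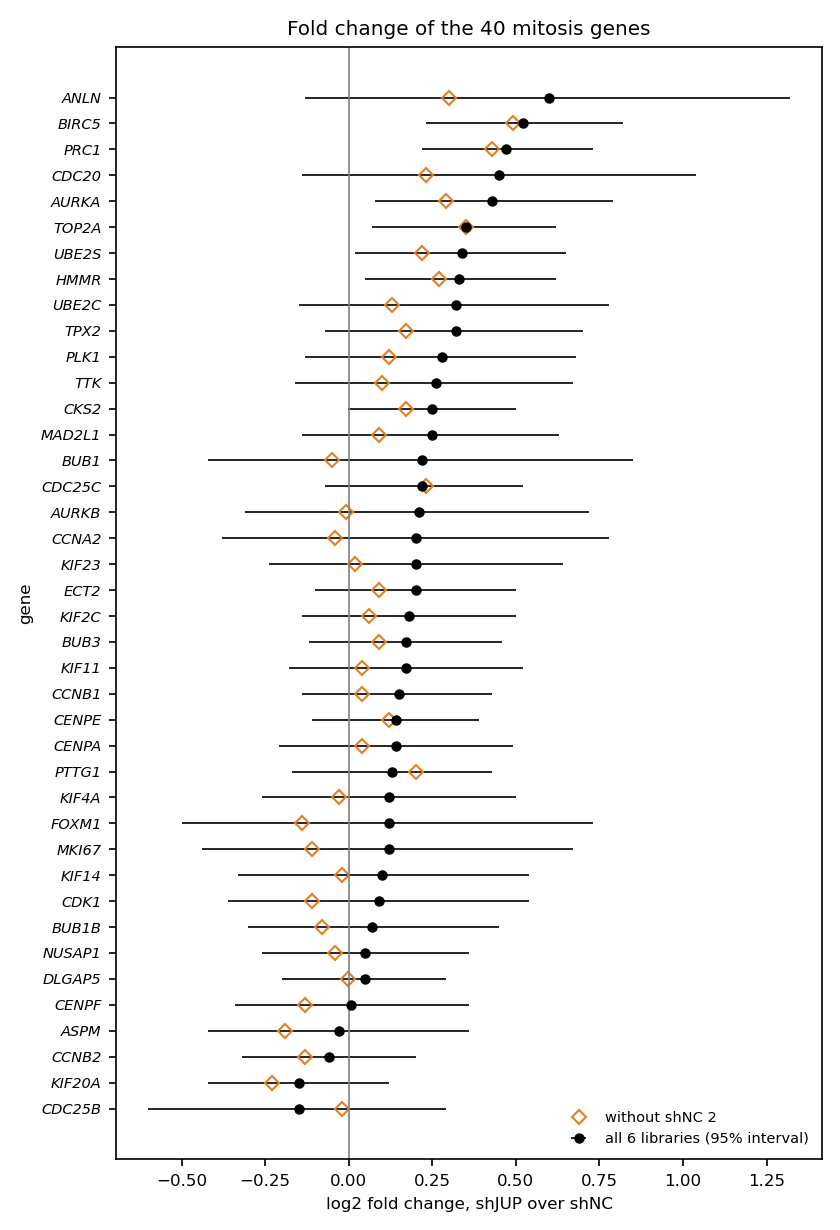
Log2 fold change of each of the 40 mitosis genes, shJUP over shNC, from the edgeR fit over all 6 libraries (black points, bars for the 95% interval) and from the fit without shNC 2 (open diamonds). The black points lie above 0 for 36 genes and the diamonds for 24, and BIRC5, PRC1 and TOP2A keep nearly the same value in both.

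The size of this difference depended on the libraries kept, most of all on the control library shNC 2. The summed level of the 40 genes was 7435, 6696 and 7408 CPM in shJUP 1, 2 and 3, against 6605, 5291 and 6810 CPM in shNC 1, 2 and 3. The groups overlap, because shJUP 2 lies below shNC 3. The mean sum was 7180 ± 419 CPM over the shJUP libraries and 6235 ± 824 CPM over the shNC libraries (SD, n = 3 each), a difference close to the larger of the SDs. Library shNC 2 was the lowest of the 6 for 33 of the 40 genes, against 25.9% of all tested genes, and lay below both other controls for 34 of them, against 42.6%. The level in shNC 2 over the mean of shNC 1 and 3 had a median of 0.75 over the 40 genes and 0.99 over all tested genes. In the shJUP group, the ratio of shJUP 2 to the mean of shJUP 1 and 3 had a median of 0.88, against 0.99 over all genes. Leaving out shNC 2 alone kept shJUP 2, which was also low for these genes. The fit then had 24 of the 40 above 0, against 50.5% of all tested genes. The median log2 fold change was 0.05. Without both number-2 libraries the count was 31 of 40, against 50.5%, and the median was 0.12. Library shNC 2 also had the highest fibroblast marker sum, 496 CPM, and the highest COL3A1 level, 45.9 CPM, against 0.0530 to 5.57 CPM in the others. In shNC 2 COL1A1 alone was at 400 CPM. Library shJUP 1 had the next highest fibroblast marker sum, 268 CPM, beside the highest summed level of the 40 genes, 7435 CPM. The part of the fibroblast marker genes in the low mitotic levels was not tested.

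**Figure D2:**
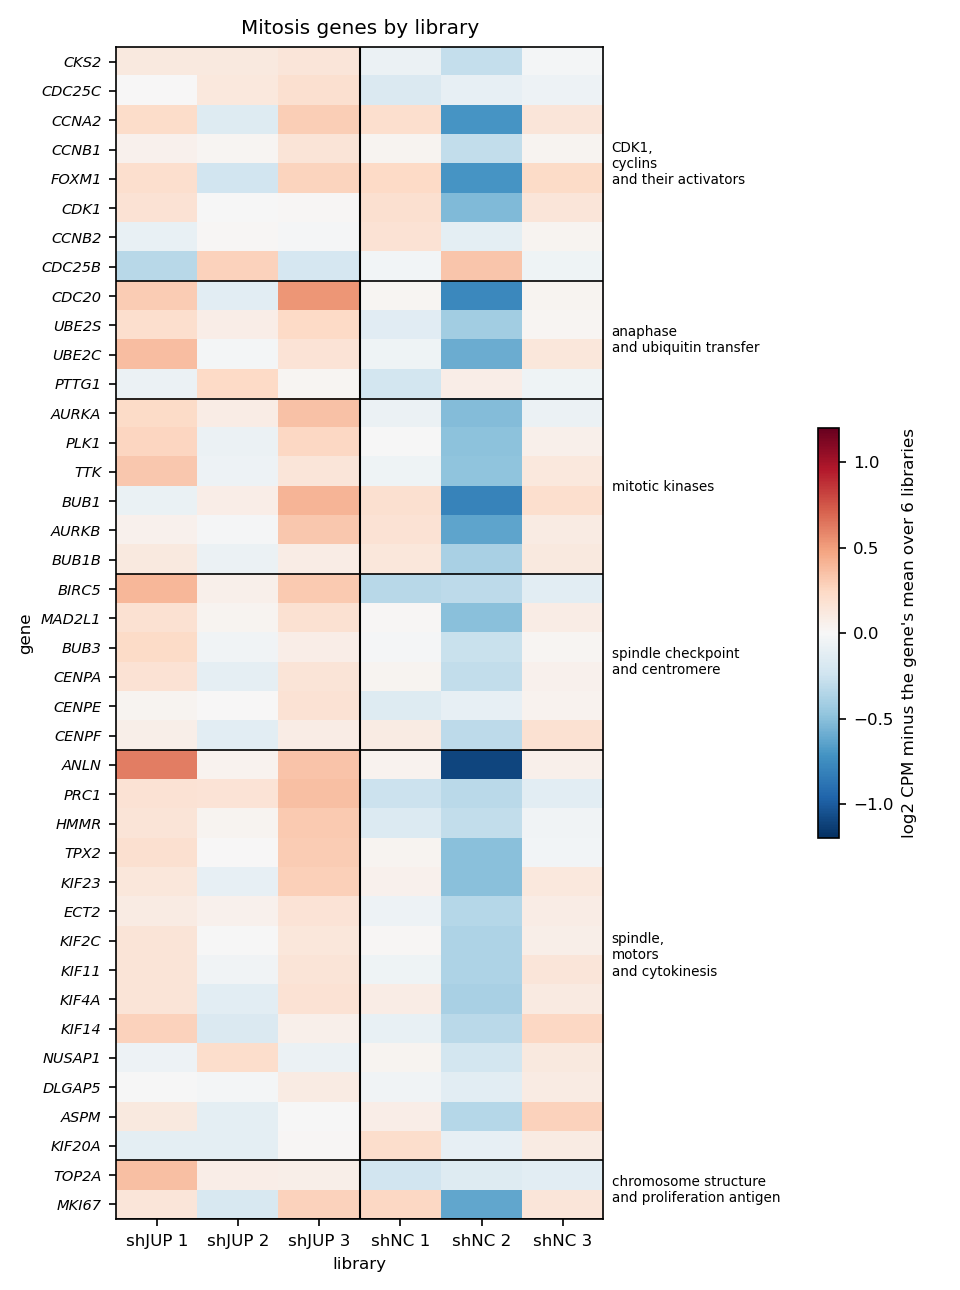
Log2 CPM of each mitosis gene in each library minus that gene's mean over the 6 libraries, with genes grouped by role. The shNC 2 column is blue (low) for most genes and holds the lowest value for 33 of the 40, while shJUP 3 holds the highest value for 21.

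Compared within a library number, shJUP lay above shNC for most of these genes each time, by different amounts. In number 1, 29 of the 40 were higher in shJUP 1 than in shNC 1 (background 47.8%), with a median log2 difference of 0.15. In number 2, 38 of the 40 were higher in shJUP 2 than in shNC 2 (background 49.7%), with a median of 0.38. In number 3, 31 of the 40 were higher in shJUP 3 than in shNC 3 (background 49.9%), with a median of 0.10. The largest median belongs to number 2, in which JUP was lowered least. There shNC 2 held the lowest value of the 6 libraries for 33 of the 40 genes. A link of these medians to the JUP level was not tested. Higher in all 3 numbers were 27 of the 40 genes, against 21.3% of all tested genes. CDC25B and KIF20A were lower in all 3, against 22.5% of all tested genes.

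**Figure D3:**
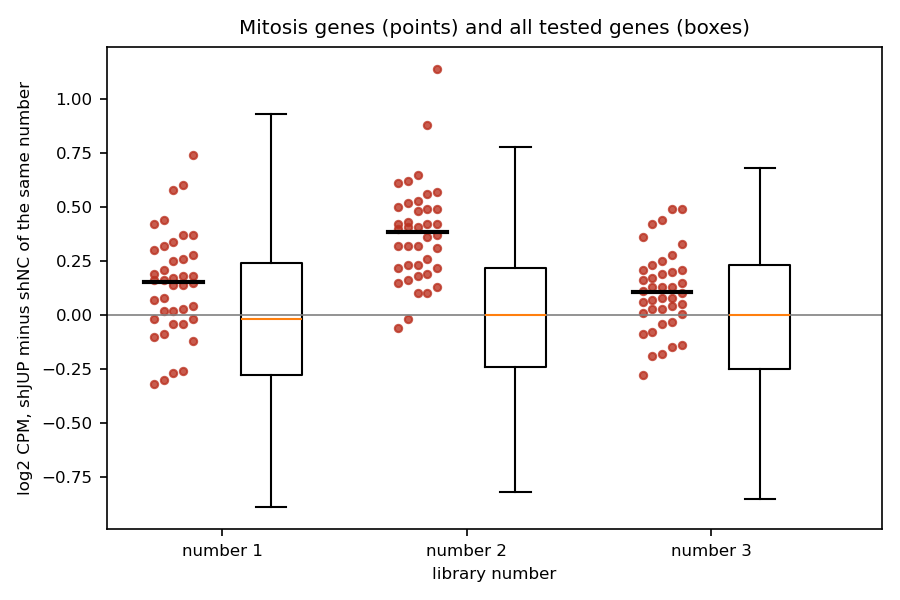
Log2 CPM of shJUP minus shNC of the same number, for the 40 mitosis genes (red points, black line at the median) and for all tested genes (boxes with the median and quartiles, whiskers at the 5th and 95th percentiles). The medians of the mitosis genes are 0.15, 0.38 and 0.10 for numbers 1, 2 and 3, while the boxes centre near 0.

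In 8 of the 40 genes every shJUP library lay above every control, against 8.39% of all tested genes, and in 0 of the 40 did every shJUP library lie below every control, against 8.65%. Without shNC 2 these counts were 8 higher and 4 lower, against backgrounds of 14.9% higher and 15.4% lower. Without both number-2 libraries they were 24 higher and 4 lower, against 25.8% and 25.5%. The 8 genes apart over all 6 libraries are PRC1, BIRC5, TOP2A, AURKA, HMMR, UBE2S, CKS2 and CDC25C. They belong to different parts of the machinery, and they are described with their groups.

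Among the 14 genes of the spindle, its motors and cytokinesis, 12 lay above 0 and 2 below, with a median log2 fold change of 0.17. Without shNC 2, 8 of the 14 lay above 0 and the median was 0.03. Without both number-2 libraries, 11 did and the median was 0.11. PRC1 (ENSG00000198901), which bundles antiparallel microtubules in the spindle midzone, was at 206, 205 and 235 CPM in shJUP 1, 2 and 3, against 152, 146 and 167 CPM in shNC 1, 2 and 3. The lowest shJUP library stood clear of the highest control, and both number-2 libraries lay close to their own group. The mean of PRC1 was 215 ± 17 CPM with shJUP and 155 ± 10.8 CPM with shNC (SD, n = 3 each), a log2 fold change of 0.47 (SE 0.11, 95% interval 0.22 to 0.73) with an edgeR adjusted p of 0.38. PRC1 rose by DESeq2 (adjusted p = 0.042, and 8.5e-04 with the block) and by edgeR with the block had an adjusted p of 0.098. Without shNC 2 the log2 fold change was 0.43 (SE 0.12). An antisense gene and an unnamed gene on the same strand, ENSG00000284946, with a mean of 307 counts against 3420 for PRC1, overlap its exons.

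HMMR (ENSG00000072571), a hyaluronan receptor that also localises to the spindle, was at 59.9, 55 and 67.1 CPM in shJUP 1, 2 and 3, against 48.1, 44 and 52.4 CPM in shNC 1, 2 and 3. The groups were narrowly apart, with a log2 fold change of 0.33 (SE 0.12, edgeR adjusted p = 0.45). ANLN (ENSG00000011426), the scaffold protein of the contractile ring, had the largest fold change of the 40 and was looked at for that reason. It was at 533, 358 and 440 CPM in shJUP 1, 2 and 3, against 357, 162 and 362 CPM in shNC 1, 2 and 3. Library shJUP 2 was level with shNC 1 and 3, so the groups overlap, and shNC 2 held less than any other library. The log2 fold change of ANLN was 0.60 (SE 0.31, edgeR adjusted p = 0.56), and 0.30 without shNC 2. DESeq2 with the block called it (adjusted p = 0.0041), and without the block did not (0.48). Exons of MATCAP2 overlap ANLN on the opposite strand, with a mean of 533 counts against 6790 for ANLN.

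TPX2, which activates Aurora A on spindle microtubules, had a log2 fold change of 0.32 (SE 0.16). ECT2, the exchange factor that turns on RhoA for cytokinesis, was at 0.20 (SE 0.13), and KIF23, the motor subunit of centralspindlin, at 0.20 (SE 0.19). KIF2C, a microtubule depolymerase, was at 0.18 (SE 0.14), KIF11, the motor that separates the spindle poles, at 0.17 (SE 0.15), and the chromokinesin KIF4A at 0.12 (SE 0.16). KIF14, a motor of the midbody, was at 0.10 (SE 0.18), while NUSAP1 and DLGAP5, which stabilise spindle microtubules, were both at 0.05 (SE 0.13 for NUSAP1 and 0.10 for DLGAP5). None of these passed the edgeR test, and for KIF4A, KIF14, NUSAP1 and DLGAP5 the sign turned without shNC 2, while KIF11 was then at 0.04, KIF23 at 0.02, KIF2C at 0.06, ECT2 at 0.09 and TPX2 at 0.17. Exons of PDZD11 overlap KIF4A on the opposite strand, with a mean of 483 counts against 1950 for KIF4A. KIF20A, a kinesin of the midzone that works with PRC1, was at 78.3, 78.2 and 86 CPM in shJUP 1, 2 and 3, against 98.1, 79.5 and 91.1 CPM in shNC 1, 2 and 3. Its log2 fold change was -0.15 (SE 0.11, 95% interval -0.42 to 0.12), where that of PRC1 was above 0. The difference between these 2 genes was not tested. Exons of CDC23 and BRD8 overlap KIF20A on the opposite strand, with means of 1420 and 1020 counts against 1570 for KIF20A, so its value is uncertain. ASPM, a protein of the spindle poles, was at 159, 135 and 146 CPM in shJUP 1, 2 and 3, against 156, 116 and 178 CPM in shNC 1, 2 and 3, with a log2 fold change of -0.03 (SE 0.17) and overlapping groups.

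All 6 genes of the spindle checkpoint and centromere group lay above 0, with a median of 0.16. Without shNC 2 the count was 5 of 6 and the median 0.09, and without both number-2 libraries 5 of 6 and 0.15. BIRC5 (ENSG00000089685), which encodes survivin of the chromosomal passenger complex, was at 174, 138 and 164 CPM in shJUP 1, 2 and 3, against 105, 106 and 120 CPM in shNC 1, 2 and 3. Each shJUP library exceeded each control, and shNC 2 stood beside shNC 1. The mean of BIRC5 was 159 ± 19 CPM with shJUP and 110 ± 8.69 CPM with shNC (SD, n = 3 each), or 1.44-fold (log2 0.52, SE 0.13, 95% interval 0.23 to 0.82, edgeR adjusted p = 0.38). DESeq2 gave an adjusted p of 0.050, just over the threshold, and 0.0035 with the block, where BIRC5 rose. MAD2L1, the MAD2 protein that binds CDC20 at the checkpoint, was at 146, 131 and 146 CPM in shJUP 1, 2 and 3, against 129, 90.8 and 136 CPM in shNC 1, 2 and 3. Library shJUP 2 lay between the controls, so the groups overlap, and the log2 fold change of 0.25 (SE 0.16) became 0.09 without shNC 2. BUB3, the WD40 partner of the BUB kinases, was at 0.17 (SE 0.12). CENPA, the centromeric histone H3 variant, was at 0.14 (SE 0.15), and at 0.04 without shNC 2. Exons of SLC35F6 overlap CENPA on the same strand, with a mean of 1650 counts against 439 for CENPA, so its value is uncertain. CENPE, the kinesin of the kinetochore, was at 0.14 (SE 0.11). CENPF, a large kinetochore protein, averaged 246 ± 19.9 CPM with shJUP and 245 ± 42.7 CPM with shNC (SD, n = 3 each).

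All 6 mitotic kinases lay above 0, with a median of 0.24. Without shNC 2 the count was 3 of 6 and the median 0.05, and without both number-2 libraries 4 of 6 and 0.14. AURKA (ENSG00000087586), the Aurora kinase of the spindle poles, was at 126, 114 and 137 CPM in shJUP 1, 2 and 3, against 102, 74.6 and 102 CPM in shNC 1, 2 and 3. The groups did not overlap, although shNC 2 lay far below the other controls. The log2 fold change was 0.43 (SE 0.15, edgeR adjusted p = 0.45), and 0.29 (SE 0.12) without shNC 2. AURKA rose by DESeq2 with the block (adjusted p = 0.017), not without it (0.29). PLK1, the Polo-like kinase, was at 100, 79.5 and 99.6 CPM in shJUP 1, 2 and 3, against 83.6, 59.5 and 87.3 CPM in shNC 1, 2 and 3. Library shJUP 2 lay below shNC 1 and shNC 3, and the log2 fold change was 0.28 (SE 0.17, 95% interval -0.13 to 0.68).

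TTK, the checkpoint kinase also called MPS1, was at a log2 fold change of 0.26 (SE 0.18). The checkpoint kinase BUB1 was at 0.22 (SE 0.27), AURKB, the kinase of the chromosomal passenger complex, at 0.21 (SE 0.22), and BUB1B, which encodes BUBR1, at 0.07 (SE 0.16). The values of BUB1, AURKB and BUB1B turned sign without shNC 2. AURKB differed in this from its passenger complex partner BIRC5, whose log2 fold change was 0.49 without shNC 2, against -0.0089 for AURKB. The difference between these genes was not tested.

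**Figure D4:**
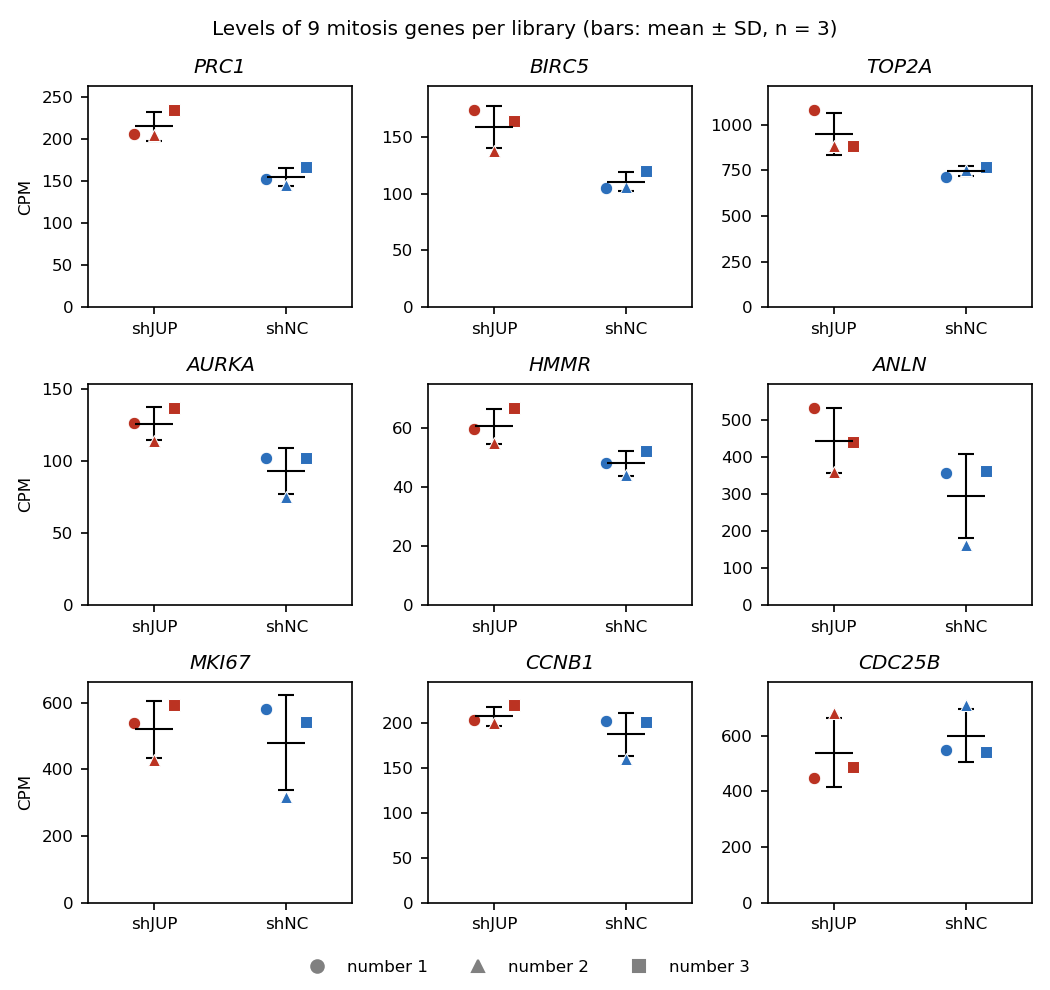
CPM of 9 mitosis genes in each library, shJUP left and shNC right, with point shapes for the library number and bars for the mean ± SD (n = 3). In PRC1, BIRC5, TOP2A, AURKA and HMMR the groups do not overlap, in ANLN and MKI67 the triangle of shNC 2 lies far below the other controls, and in CDC25B both number-2 triangles lie highest.

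The 4 genes of anaphase and ubiquitin transfer all lay above 0, with a median of 0.33. They did so without shNC 2, with a median of 0.21, and without both number-2 libraries, with a median of 0.26. UBE2S (ENSG00000108106), which extends ubiquitin chains on substrates of the anaphase-promoting complex, was at 103, 94 and 105 CPM in shJUP 1, 2 and 3, against 81.2, 66.8 and 90.9 CPM in shNC 1, 2 and 3. The groups were separate by a small margin, with a log2 fold change of 0.34 (SE 0.13, edgeR adjusted p = 0.47), and 0.22 (SE 0.11) without shNC 2. CDC20, the coactivator of that complex, was at 229, 170 and 267 CPM in shJUP 1, 2 and 3, against 189, 108 and 190 CPM in shNC 1, 2 and 3. Both number-2 libraries were the lowest of their groups, and shJUP 2 lay below shNC 1 and 3. The log2 fold change of 0.45 (SE 0.25, edgeR adjusted p = 0.59) became 0.23 without shNC 2, and CDC20 rose by DESeq2 with the block (adjusted p = 0.0068), not without it (0.58). UBE2C, the enzyme that starts those chains, was at 0.32 (SE 0.20). It has processed copies in the genome, of which UBE2CP5 had a mean of 30.2 counts, so UBE2C is uncertain to that extent. PTTG1, which encodes securin, was at 0.13 (SE 0.13) and was among the few genes with more RNA in both number-2 libraries, at 91.5 CPM in shJUP 2 and 81.7 CPM in shNC 2.

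Of the 8 genes of CDK1, its cyclins and activators, 6 lay above 0 and 2 below, with a median of 0.13, the lowest of the 6 role groups. Without shNC 2, 3 of the 8 lay above 0 and the median was -0.03. Without both number-2 libraries, 5 did and the median was 0.05. CDK1 itself averaged 141 ± 10 CPM with shJUP and 133 ± 33.8 CPM with shNC (SD, n = 3 each), a log2 fold change of 0.09 with a 95% interval of -0.36 to 0.54. It turned to -0.11 without shNC 2 and to -0.07 without both number-2 libraries. CCNB1, cyclin B1, was at 204, 200 and 220 CPM in shJUP 1, 2 and 3, against 202, 160 and 201 CPM in shNC 1, 2 and 3, where only shNC 2 stood apart (log2 0.15, SE 0.12). CCNB2, cyclin B2, was at 61.9, 66.3 and 65.2 CPM in shJUP 1, 2 and 3, against 74.3, 60.4 and 67.1 CPM in shNC 1, 2 and 3. Its shJUP values lay within the range of the controls, and its log2 fold change was -0.06 (SE 0.11, 95% interval -0.32 to 0.20). CCNA2, cyclin A2, averaged 136 ± 21.8 CPM with shJUP and 118 ± 37.2 CPM with shNC (SD, n = 3 each), and its log2 fold change of 0.20 (SE 0.25) became -0.04 without shNC 2. Exons of EXOSC9 overlap CCNA2 on the opposite strand, with a mean of 924 counts against 2350 for CCNA2, so its value is uncertain.

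CKS2 (ENSG00000123975), the small subunit that docks CDK1 on phosphorylated substrates, was at 94.6, 94.8 and 96.5 CPM in shJUP 1, 2 and 3, against 83.3, 71.6 and 85.9 CPM in shNC 1, 2 and 3. The shJUP libraries were nearly identical and all above the controls, with a log2 fold change of 0.25 (SE 0.11, edgeR adjusted p = 0.50). CDC25C, a phosphatase that activates CDK1, had the lowest level of the 40 by mean CPM. It had 300, 342 and 359 counts in shJUP 1, 2 and 3, against 267, 293 and 294 counts in shNC 1, 2 and 3, which is 16.7, 18.2 and 19.1 CPM against 14.8, 15.6 and 16 CPM. These groups also did not overlap (log2 0.22, SE 0.13, edgeR adjusted p = 0.59), and the value without shNC 2 was 0.23. Exons of FAM53C overlap CDC25C on the opposite strand with a mean of 766 counts against 309, so its value is uncertain. CDC25B, the related phosphatase that starts CDK1 activation at the centrosome, had a log2 fold change below 0 that was smaller than its SE. It was at 447, 681 and 489 CPM in shJUP 1, 2 and 3, against 550, 709 and 542 CPM in shNC 1, 2 and 3. Both number-2 libraries were the highest here, where most mitosis genes had their lowest values in shNC 2, and the log2 fold change was -0.15 (SE 0.19, edgeR adjusted p = 0.80). FOXM1, the transcription factor that drives many of these genes, was at 87.2, 64.7 and 91.3 CPM in shJUP 1, 2 and 3, against 89.4, 46.4 and 88.6 CPM in shNC 1, 2 and 3. Libraries of number 1 and 3 were level between the groups, and only number 2 was low in each (log2 0.12, SE 0.26).

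TOP2A (ENSG00000131747), topoisomerase II alpha, which untangles sister chromatids, had the highest mean CPM of the 40. It was at 1083, 886 and 884 CPM in shJUP 1, 2 and 3, against 716, 755 and 771 CPM in shNC 1, 2 and 3. All shJUP libraries were higher, shJUP 1 the most, and shNC 2 was not the lowest control. The mean of TOP2A was 951 ± 114 CPM with shJUP and 747 ± 28.4 CPM with shNC (SD, n = 3 each), a log2 fold change of 0.35 (SE 0.12, edgeR adjusted p = 0.44) that was also 0.35 without shNC 2. MKI67, which encodes the proliferation antigen Ki-67, was at 540, 427 and 592 CPM in shJUP 1, 2 and 3, against 580, 318 and 542 CPM in shNC 1, 2 and 3. The groups overlapped, with a log2 fold change of 0.12 (SE 0.24, 95% interval -0.44 to 0.67), and -0.11 without shNC 2. Per kilobase of merged exon (GENCODE release 29), the mean level over the 6 libraries was highest for CKS2, at 143 CPM per kb, followed by TOP2A and CDC25B, both at 132, and lowest for CDC25C at 5.01 and KIF14 at 5.1 CPM per kb.

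Neighbouring parts of the cell cycle were read from further lists, chosen with earlier results of these data known, and described by counts. Of their 168 tested genes, edgeR called 0. DESeq2 called 3 higher (CDKN1A, GADD45A and CDK2) and 0 lower, against 0.664% of all its tested genes higher and 0.524% lower. With the block DESeq2 called 14 higher and 2 lower, against 2.35% and 2.91%. Library shNC 2 was the lowest of the 6 for 113 of the 168, and 129 of them (76.8%) lay above 0 over all 6 libraries, against 99 (58.9%) without shNC 2, where the background was 50.5%. Each list is therefore given with its median without that library. Library shJUP 2 was low in these lists too, with a median ratio of 0.86 to shJUP 1 and 3. Without both number-2 libraries, 117 of the 168 (69.6%) lay above 0, against 50.5%, with a median of 0.11. The median was then 0.16 for the kinetochore and checkpoint list, 0.21 for spindle and cytokinesis and 0.11 for condensin and cohesin. It was 0.07 for the anaphase-promoting complex list and 0.02 for mitotic entry. Of 30 further kinetochore and checkpoint genes 27 lay above 0 (median log2 0.20, and 0.05 without shNC 2), with MAD1L1, the partner of MAD2, at 0.53 (SE 0.16) and CENPH at 0.38 (SE 0.13). Of 21 further spindle and cytokinesis genes 20 lay above 0 (median 0.23, and 0.09 without shNC 2), among them KNSTRN, a kinetochore-localised spindle protein, at 0.55 (SE 0.16) and citron kinase, CIT, at 0.33 (SE 0.09). Of 18 condensin and cohesin genes 16 did (median 0.14, and 0.0054 without shNC 2), with the condensin II subunit NCAPD3 at 0.44 (SE 0.12) and NCAPH of condensin I at 0.36 (SE 0.19), which became 0.16 without shNC 2. Of 17 subunits and regulators of the anaphase-promoting complex 12 did (median 0.08, and 0.06 without shNC 2), with CDC27 at 0.33 (SE 0.11) and ANAPC7 at 0.43 (SE 0.20). Of 15 regulators of mitotic entry 10 did (median 0.12, and -0.09 without shNC 2). There MASTL, the Greatwall kinase, was at 0.37 (SE 0.12), and ARPP19, its substrate and an inhibitor of PP2A-B55, was at 315, 305 and 243 CPM in shJUP 1, 2 and 3, against 382, 382 and 426 CPM in shNC 1, 2 and 3 (log2 -0.46, SE 0.13, edgeR adjusted p = 0.40, and 0.028 by DESeq2 with the block).

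Of 16 DREAM, MuvB and pocket protein genes 10 lay above 0 and 6 below, with log2 fold changes from -0.46 to 0.49. The median was 0.13, 0.07 without shNC 2 and 0.15 without both number-2 libraries. MYBL2, the MuvB partner of the late cell cycle programme, was at 200, 185 and 246 CPM in shJUP 1, 2 and 3, against 163, 112 and 174 CPM in shNC 1, 2 and 3 (log2 0.49, SE 0.19, and 0.32 without shNC 2). TFDP1, the E2F partner, was at 0.29 (SE 0.11). Among 14 tested CDK inhibitors and p53 targets 5 lay above 0 and 9 below (median -0.04). Without shNC 2, 8 lay above 0 (median 0.08), and without both number-2 libraries 6 did (median -0.09). CDKN1A, the CDK inhibitor p21, rose by DESeq2, at 23.3, 22.2 and 18.6 CPM in shJUP 1, 2 and 3, against 7.9, 9.03 and 15.4 CPM in shNC 1, 2 and 3 (log2 0.99, SE 0.26, DESeq2 adjusted p = 0.044, edgeR adjusted p = 0.40). GADD45A, a stress-induced inhibitor of CDK1-cyclin B1, rose by DESeq2 as well (log2 1.08, SE 0.32, DESeq2 adjusted p = 0.047). It was at 240, 127 and 255 CPM in shJUP 1, 2 and 3, against 101, 65.1 and 128 CPM in shNC 1, 2 and 3. The groups overlapped, since shJUP 2 lay just below shNC 3, and the edgeR adjusted p was 0.41. CDK2, the kinase of S phase entry, rose by DESeq2, at 83.2, 73.3 and 86.6 CPM in shJUP 1, 2 and 3, against 57.7, 46.9 and 56.5 CPM in shNC 1, 2 and 3 (log2 0.59, SE 0.12, DESeq2 adjusted p = 0.018). It was read in the list of cell cycle exit and G1 cyclins, of which 5 of 7 tested genes lay above 0. The median of that list was 0.03, -0.11 without shNC 2 and -0.03 without both number-2 libraries, with CCND3 at 0.44 (SE 0.13). Of 30 genes of G1/S and DNA replication 24 lay above 0 (median 0.13, 0.02 without shNC 2 and 0.10 without both number-2 libraries). CCNE1 was at 0.66 (SE 0.22) and MCM6 at 0.64 (SE 0.20). For MCM6 the groups overlapped, since shJUP 1 (109 CPM) lay below shNC 2 (114 CPM), its highest control. Its log2 fold change was 0.80 without shNC 2. The replication list shared the low values of shNC 2 in most of its genes, with a median ratio of 0.71 to the other controls. Within numbers it differed from the mitosis genes: 13, 28 and 27 of its 30 genes were higher in shJUP in numbers 1, 2 and 3, against 29, 38 and 31 of the 40 mitosis genes. The difference between the lists was not tested.

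**Figure D5:**
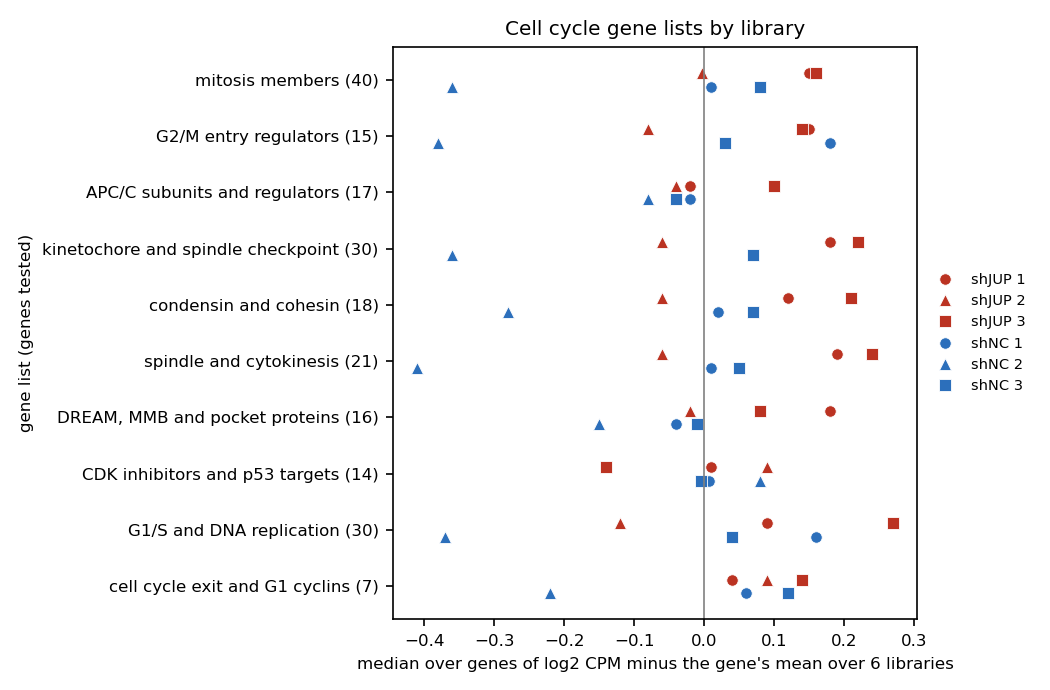
Median over the genes of each list of the log2 CPM minus each gene's mean over the 6 libraries, for shJUP (red) and shNC (blue), with point shapes for the library number. The triangle of shNC 2 is lowest for the mitosis genes, at -0.36, and for the lists around them, and not for the CDK inhibitors and p53 targets, where it is at 0.08.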

How the data were processed

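RNA of 6 SKOV3 cultures was enriched with oligo(dT) beads and sequenced on a DNBSEQ instrument, per the labels' protocols. The authors deposited unscaled expected counts for each Ensembl gene. The submitters' processing notes name STAR 2.7.9a, RSEM 1.3.3, edgeR 3.32.1 and DESeq2 1.26.0 without saying which step each served. The sources used here give no build, annotation or strand setting, so overlapping and antisense genes cannot be separated. Of 60695 rows, 31 named no gene and were dropped. Counts were rounded to whole numbers, since 33.9% to 36.3% of the values above 0 were not whole.

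Genes were tested in R 4.3.3 with edgeR 4.0.16, using filterByExpr, TMM scaling (factors 0.978 to 1.028), the quasi-likelihood test, two-sided, and Benjamini-Hochberg adjustment over 15867 genes with a threshold of 0.05. Levels are CPM after TMM scaling, and log2 fold changes are shJUP over shNC. Standard errors (SE) were back-calculated from the F statistic. DESeq2 1.42.0 and limma-voom (limma 3.58.1) were alternatives, with other scalings and filters, a block for the library number, and libraries left out. Same-numbered libraries deviated together from their group means (correlations of 0.14, 0.51 and 0.20 for numbers 1, 2 and 3), all over the 0.1 required to treat the numbers as pairs. Unlike-numbered libraries deviated together as much in part (0.39 for shJUP 3 with shNC 1, and 0.15 for shJUP 1 with shNC 3), and only in number 2 did both libraries correlate best with each other. What a number means is not labelled, and blocked values are given beside the others. The edgeR and DESeq2 fits over all 6 libraries, without the block, were first tested on simulated counts. The other settings were not.

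The members and lists were chosen with earlier results of these data known, so no list-wide test is given. All 40 members are named, with values per library for at least the 2 smallest p-values in each role group, the highest and lowest level and the 4 lowest fold changes, and from each other list the 2 genes with the smallest p. For symbols with several RefSeq windows the first was used.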

Additional observations from a re-analysis of the deposited data

How the results depend on the processing

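Over all genes edgeR called 0, limma-voom 0, edgeR without the filter 5, edgeR with the replicate block 1, edgeR without both number-2 libraries 49, DESeq2 179 and DESeq2 with the replicate block 696. Of the members, edgeR called 0 in every setting run, DESeq2 1 and DESeq2 with the block 5. With 1 library left out, edgeR called 0 members and 0 genes in each fit. Members above 0 numbered 24 to 37 with 1 library left out, lowest without shNC 2, and 31 to 37 in the other settings, and the median log2 fold change 0.05 to 0.28. Members at an unadjusted p under 0.05 numbered 2 to 7 with 1 library left out, 13 with the block in edgeR and 12 with it in DESeq2. Members higher in shJUP with no overlap between the groups numbered 8 to 24 with 1 library left out (24 without shJUP 2, background 17.8%; 15 without shNC 3, 12.4%) and 24 without both number-2 libraries (background 25.8%). The same count lower in shJUP was 0 over all 6 libraries, 0 to 4 with 1 left out, highest without shNC 2, and 4 without both number-2 libraries. JUP passed with the block in DESeq2 (log2 -1.30, adjusted p = 0.048).

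Members whose sign turned when a single library was left out ranged, in log2 fold change, between these values: CCNA2 -0.04 and 0.35, CCNB2 -0.13 and 0.02, CDK1 -0.11 and 0.21, AURKB -0.0089 and 0.35, BUB1 -0.05 and 0.38, BUB1B -0.08 and 0.16, CENPF -0.13 and 0.11, KIF4A -0.03 and 0.21, KIF14 -0.02 and 0.27, NUSAP1 -0.05 and 0.12, DLGAP5 -0.0032 and 0.11, MKI67 -0.11 and 0.27, FOXM1 -0.14 and 0.26, ASPM -0.19 and 0.11. Without both number-2 libraries CDK1 was at -0.07, BUB1 at -0.0021, BUB1B at -0.01, CENPF at -0.05 and NUSAP1 at -0.13. CENPF was at -0.0073 with upper quartile scaling and ASPM at 0.0023 with library totals alone. None of these passed. The cause was not tested. Every member had at least 267 counts in each library.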
